A study of Mus musculus with 6 samples.

Results

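A set of 10 heat shock chaperones, of the 32285 genes in the deposited count matrices, was chosen by symbol: the inducible Hsp70 pair Hspa1a and Hspa1b, the constitutive Hsp70 Hspa8, the Hsp110 nucleotide exchange factor Hsph1, the J-domain co-chaperones Dnajb1 and Dnaja1, the inducible cytosolic Hsp90 Hsp90aa1, the small heat shock proteins Hspb1 and Cryab, and the mitochondrial co-chaperonin Hspe1. All 10 were found. Their transcripts were read by droplet-based 3′ single-cell RNA sequencing of non-cardiomyocytes from mouse heart ventricles. Each transcript molecule was counted once by its unique molecular identifier (UMI).

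A total of 6 libraries were made, each from 4 pooled male mice of 8 to 12 weeks, and each was the only library of its group. Wild-type mice (WT) carried the strain label C57BL/6JRj, and knockout mice (KO) the label B6.Cg-Trpm4tm1.2-PG, an allele of the ion channel gene Trpm4. Both genotypes were sampled 24 h after sham surgery, 24 h after ligation of the LAD (left anterior descending) artery, a model of myocardial infarction, and 72 h after ligation. No 72 h sham library was analysed here, and nothing in the labels says that KO and WT mice were littermates. For every library the tissue was digested with thermolysin and papain at 37 °C for 30 min, and live cells stained with Calcein-AM and not with DAPI were sorted, so that all 6 groups share a warm digestion. With 1 library a group there is no replicate check and no test. Genotype, condition and library cannot be told apart, and the 95% intervals given below cover counting error only.

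Heat shock chaperones bind unfolded or aggregating proteins and refold them or hand them on. In the classic heat shock response, the transcription factor HSF1 binds heat shock elements, inverted repeats of nGAAn, and raises Hspa1a, Hspa1b, Hsph1, Dnajb1, Hspb1 and Hsp90aa1 within minutes of heat, oxidative or proteotoxic stress. Hsp70 works in a cycle with J-domain proteins, which deliver clients, and with Hsp110, which releases nucleotide. In the heart these genes are known for their response to ischaemia, and Cryab is among the abundant chaperones of cardiomyocytes. Warm tissue digestion is itself known to induce heat shock and immediate early genes.

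The sequences just upstream of 4 members are shown. Hspa1a and Hspa1b, the members that differed most between libraries, share nearly the same one. Hspb1 and Hspe1 accompanied them in single endothelial cells of WT 24 h, as described below. Hsph1, Hsp90aa1 and Dnajb1 did so too, and Hspe1 did not in WT fibroblasts. The choice therefore says nothing on whether a match goes with a raised level. The sequences come from RefSeq on GRCm38.p6 and stop at the gene's annotated start. The capitals mark matches to GAANNTTC or TTCNNGAA, the 2 arrangements of adjacent heat shock element units, searched on both strands.
Hspa1a (chr17:34972157-34972406, minus strand): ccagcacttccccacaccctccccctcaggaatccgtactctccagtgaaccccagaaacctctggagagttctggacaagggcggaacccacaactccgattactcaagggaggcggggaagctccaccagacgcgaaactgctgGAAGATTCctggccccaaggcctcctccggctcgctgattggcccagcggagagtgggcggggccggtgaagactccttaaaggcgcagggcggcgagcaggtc
Hspa1b (chr17:34959239-34959488, minus strand): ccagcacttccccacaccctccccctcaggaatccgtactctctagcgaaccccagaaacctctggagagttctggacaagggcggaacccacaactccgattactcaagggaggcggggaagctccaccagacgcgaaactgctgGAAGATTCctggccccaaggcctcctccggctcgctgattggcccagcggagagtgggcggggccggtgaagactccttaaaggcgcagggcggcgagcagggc
Hspb1 (chr5:135887669-135887918, plus strand): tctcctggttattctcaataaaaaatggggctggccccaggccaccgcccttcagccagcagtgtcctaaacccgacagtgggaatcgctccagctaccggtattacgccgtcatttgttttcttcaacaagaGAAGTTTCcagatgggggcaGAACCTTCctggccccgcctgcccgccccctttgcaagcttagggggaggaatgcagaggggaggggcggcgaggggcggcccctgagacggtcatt
Hspe1 (chr1:55087898-55088131, plus strand): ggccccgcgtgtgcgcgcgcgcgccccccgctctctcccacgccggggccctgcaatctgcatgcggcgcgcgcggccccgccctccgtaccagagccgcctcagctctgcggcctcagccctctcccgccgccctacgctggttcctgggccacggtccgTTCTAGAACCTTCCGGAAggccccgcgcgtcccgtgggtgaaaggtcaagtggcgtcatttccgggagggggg

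Hspa1a and Hspa1b are identical at 247 of these 250 bases, with GAANNTTC beginning 104 bases before the start in both. Hspb1 holds GAANNTTC at 117 and 97 bases before the start. Hspe1 holds the longer GAANNTTCNNGAA, found in 0.466% of 32851 mouse promoter windows of the same length. The 7 members with listed promoter windows had 11 of them. GAANNTTC was held by 5 of the 11, from 5 members, against 6.69% of all windows. TTCNNGAA was held by 3 of the 11, from 2 members, against 7.17%. In Hsph1, TTCNNGAA begins 33 bases before the start of 1 of its listed transcripts. That match, and the GAANNTTC match of Dnaja1, lie inside the annotated gene and not upstream of it. Dnajb1 held neither arrangement in its listed windows. Hsp90aa1, Hspa8 and Cryab had no entry. A match describes letters only and says nothing about binding. The 2 Hsp70 genes lie 9951 bases apart on chromosome 17 (GRCm38, minus strand; Hspa1a at chr17:34969190-34972156, Hspa1b at chr17:34956436-34959238). How reads that fit both near-identical genes were counted is not given in the sources used here, so their UMIs were summed and are called Hspa1 below, and the split between them is uncertain. Hspa8 and Hspe1 reads may likewise be shared with processed pseudogenes.

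After filtering, 32053 of 34940 deposited barcodes were kept in 38 clusters, 1685 having been removed as likely doublets. Deposited libraries held 20995280 to 45649061 UMIs, with a median of 1347 UMIs per kept barcode in the KO 72 h library and 3067 to 8011 in the other 5. The members took 0.234% to 0.387% of a library's UMIs. The 4 classes named from marker genes were large enough to be compared in every library: endothelial (259 to 3078 barcodes), fibroblast (150 to 1254), monocyte/macrophage (571 to 3085) and neutrophil (449 to 3464). A pair of clusters made up mostly of KO 72 h barcodes supplied 1305 of that library's 3085 monocyte/macrophage barcodes and 849 of its 1254 fibroblast barcodes, and that library stands apart in depth. A total of 118 barcode sequences occurred in more than 1 library. Trpm4 gave 305, 128 and 196 UMIs in the WT and 215, 140 and 54 in the KO libraries (sham, 24 h, 72 h). Where in the gene the allele is altered is not given, so 3′ reads check nothing about the genotype.

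Hspa1 levels depended on the class before any comparison of groups. In CPM, a gene's UMIs per 1000000 UMIs of its class, monocyte/macrophage barcodes held 151 CPM in WT sham, 194 in KO sham, 191 in WT 24 h ligation, 146 in KO 24 h ligation, 53.1 in WT 72 h and 118 in KO 72 h. Fibroblasts held 65.2, 84.8, 254, 102, 57.5 and 68.5 CPM in the same order. Endothelial barcodes held 15.9, 39.7, 497, 36.7, 23.0 and 50.8 CPM. Neutrophils held 8.80, 10.8, 10.4, 5.37, 12.5 and 15.6 CPM. In both sham libraries the order was therefore monocyte/macrophage, fibroblast, endothelial, neutrophil, with the intervals of endothelial and neutrophil overlapping in WT (13.4 to 18.7 and 5.30 to 13.7 CPM) and those of the other neighbours apart. At 24 h in WT the endothelial sum stood above all others.

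Among smaller classes, smooth muscle held 49.3, 145, 174 and 90.3 CPM in the 2 sham and 2 ligation 24 h libraries. The KO 72 h value was 144 CPM, but 356 of its 371 barcodes lay in cluster 27, led by Rgs5. That cluster scored 3.25 for smooth muscle and 3.18 for pericyte. With doublets kept, KO 72 h had 15 smooth muscle and 348 pericyte barcodes, so its smooth muscle values are not comparable with the others. Pericytes held 64.8, 115, 124 and 151 CPM in the first 4 libraries. Platelet-like barcodes had no Hspa1 UMI in 3 of the 4 libraries with enough of them. B cells held 12.3 to 58.6 CPM and T or NK cells 16.4 to 70.5 CPM over the 4 ligation libraries. Only classes with at least 50 barcodes in a library were measured.

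**Figure D1:**
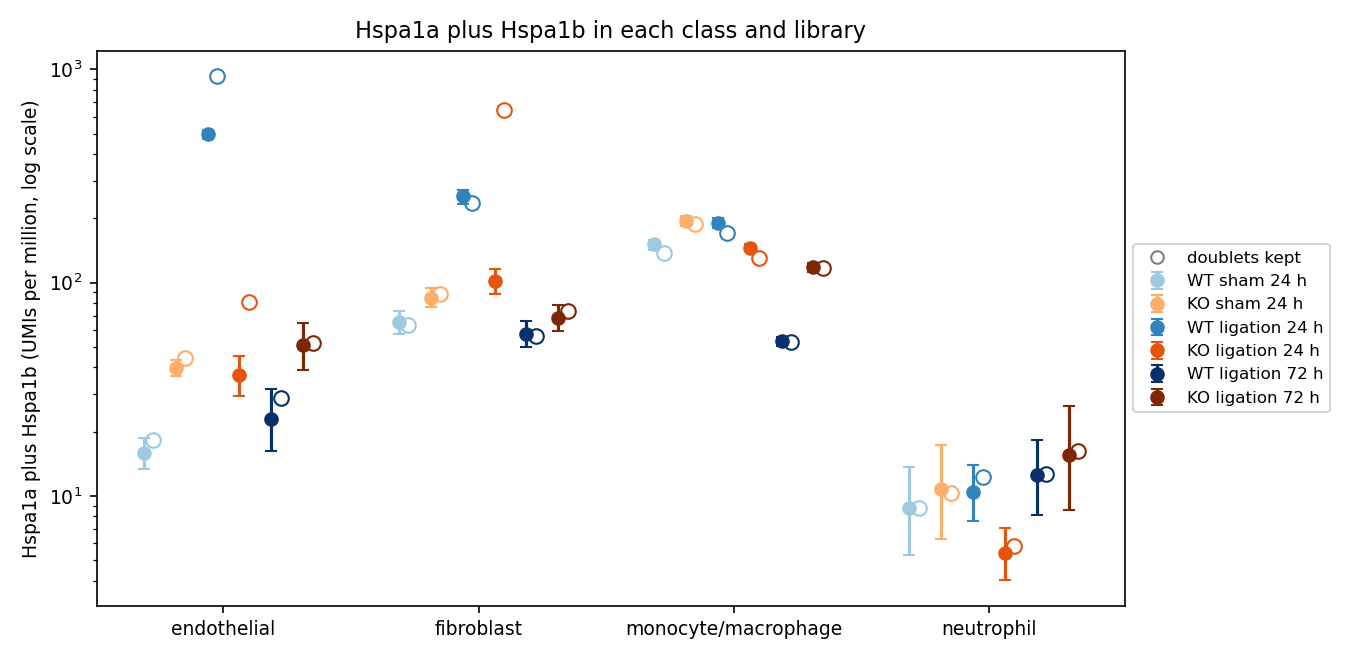
Hspa1a plus Hspa1b CPM (log axis) in 4 classes and 6 libraries, filled points with 95% exact Poisson intervals, open points with the barcodes marked as doublets kept. WT endothelial barcodes 24 h after ligation stand at 497, and at 932 with doublets kept, while the KO fibroblast value moves from 102 to 644.

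The first comparison asked how the chaperones differed between KO and WT hearts without infarction. A member was called where it differed at least 2-fold with at least 50 UMIs over the pair of libraries. Over the 4 main classes, 7 of the 36 measured member values were called higher in KO sham and 0 lower, where 1.23% of gene values over these classes were higher and 0.777% lower. The differences ran broadly in 1 direction: the KO level lay above the WT level for 10 of 10 members in endothelial, 9 of 10 in fibroblast, 10 of 10 in monocyte/macrophage and 5 of 6 measured in neutrophil barcodes. The members' median log2 ratio was 0.90 in endothelial barcodes, beside −0.06 for all genes. It was 0.49 in fibroblasts (all genes −0.01), 0.55 in monocyte/macrophage (0.02) and 0.34 in neutrophils (0.00).

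Within the Hsp70 machinery, endothelial Hspa1 was 2.50-fold higher in KO sham (95% interval 2.07 to 3.04; 497 against 141 UMIs). Hsph1, the exchange factor of Hsp70, was 9.01 CPM in WT and 28.8 in KO endothelial barcodes, 3.20-fold (2.50 to 4.12). It was 33.1 against 73.5 CPM in fibroblasts, 2.22-fold (1.81 to 2.74), and 20.4 against 61.7 CPM in monocyte/macrophage barcodes, 3.02-fold (2.53 to 3.61). Hsph1 was thus called in all 3 classes in which it had enough UMIs, and all 3 calls were as large or larger without its 10 highest barcodes. Dnaja1, Hspb1, Hsp90aa1 and Hspa8 stayed under 2-fold in endothelial barcodes, at 1.96, 1.93, 1.81 and 1.79, with counting intervals all above 1. Hspe1, the mitochondrial member, differed least there, at 1.24 (1.15 to 1.33), and in fibroblasts it was 0.961 (0.903 to 1.02).

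The KO endothelial excess was spread over many barcodes. In WT sham 84 of 2350 endothelial barcodes carried an Hspa1 UMI, and in KO sham 337 of 3078, with at most 13 UMIs in any KO barcode. Thinned to 1000 UMIs a barcode, the shares were 0.793% (0.471% to 1.25%) and 3.24%, where neutrophils, the class lowest in Hspa1, showed 0.576% and 0.756% in the same libraries. The WT endothelial share lay within the neutrophil intervals (0.187% to 1.34% in WT sham), while the KO share, with an interval of 2.64% to 3.93%, lay above them. The part of free RNA in the WT share was not tested, and the 2.50-fold ratio has this low level as its denominator. Unthinned, the endothelial shares were 3.57% and 10.9% at medians of 3290.5 and 3404.0 UMIs, with neutrophils at 2266.5 and 2166.0. Without the 10 highest barcodes of each library the log2 ratio was 1.93, beside 1.32 with them.

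Other chaperone lists held few calls in the same comparison. Of 18 other heat-inducible cytosolic chaperones and HSF1 targets, 1 was called higher in endothelial barcodes, the Hsp70–Hsp90 adaptor Stip1 (35.7 to 74.1 CPM), where 0.387% of all genes were higher. The median log2 ratio of that list was 0.43 in endothelial barcodes, beside −0.06 for all genes, and 0.22, 0.30 and 0.30 in fibroblast, monocyte/macrophage and neutrophil barcodes. The 2 measured genes of the other small heat shock proteins had an endothelial median of 0.47. In monocyte/macrophage barcodes 1 of 16 heat-inducible genes was called, the collagen chaperone Serpinh1 (2.64 to 19.0 CPM), where 2.31% of all genes were higher. No gene of the co-chaperone, mitochondrial, chaperonin (TRiC) or endoplasmic reticulum lists was called in any of the 4 classes. Their endothelial medians were 0.01, 0.09, 0.19 and 0.03. In fibroblast, monocyte/macrophage and neutrophil barcodes the endoplasmic reticulum median was 0.27, 0.34 and 0.23, close to the heat-inducible list. The co-chaperone, mitochondrial and TRiC medians there lay between −0.20 and 0.10. Immediate early genes had an endothelial median log2 ratio of −0.25. Of 14, 0 were higher and 1 lower (Nr4a1, 13.7 to 5.04 CPM), beside 0.387% and 1.42% of all genes. The part of tissue digestion in the chaperone differences was not tested.

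Hspb1, a small heat shock protein that holds unfolded clients, was also called higher in KO sham in 2 leukocyte classes where it was scarce. It was 10.1 against 48.3 CPM in monocyte/macrophage barcodes (4.78-fold, 3.78 to 6.10) and 13.0 against 48.8 CPM in neutrophils. Endothelial markers moved with it: their summed level was 284 against 1041 CPM in monocyte/macrophage barcodes and 452 against 1172 CPM in neutrophils, led by Fabp4 at 217 against 811 and 350 against 877 CPM. Per 100 endothelial marker UMIs, Hspb1 gave 2.45 UMIs in WT and 4.36 in KO endothelial barcodes, 3.56 and 4.64 in monocyte/macrophage, and 2.87 and 4.17 in neutrophils. The part of free or endothelial RNA in the Hspb1 calls was not tested.

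**Figure D2:**
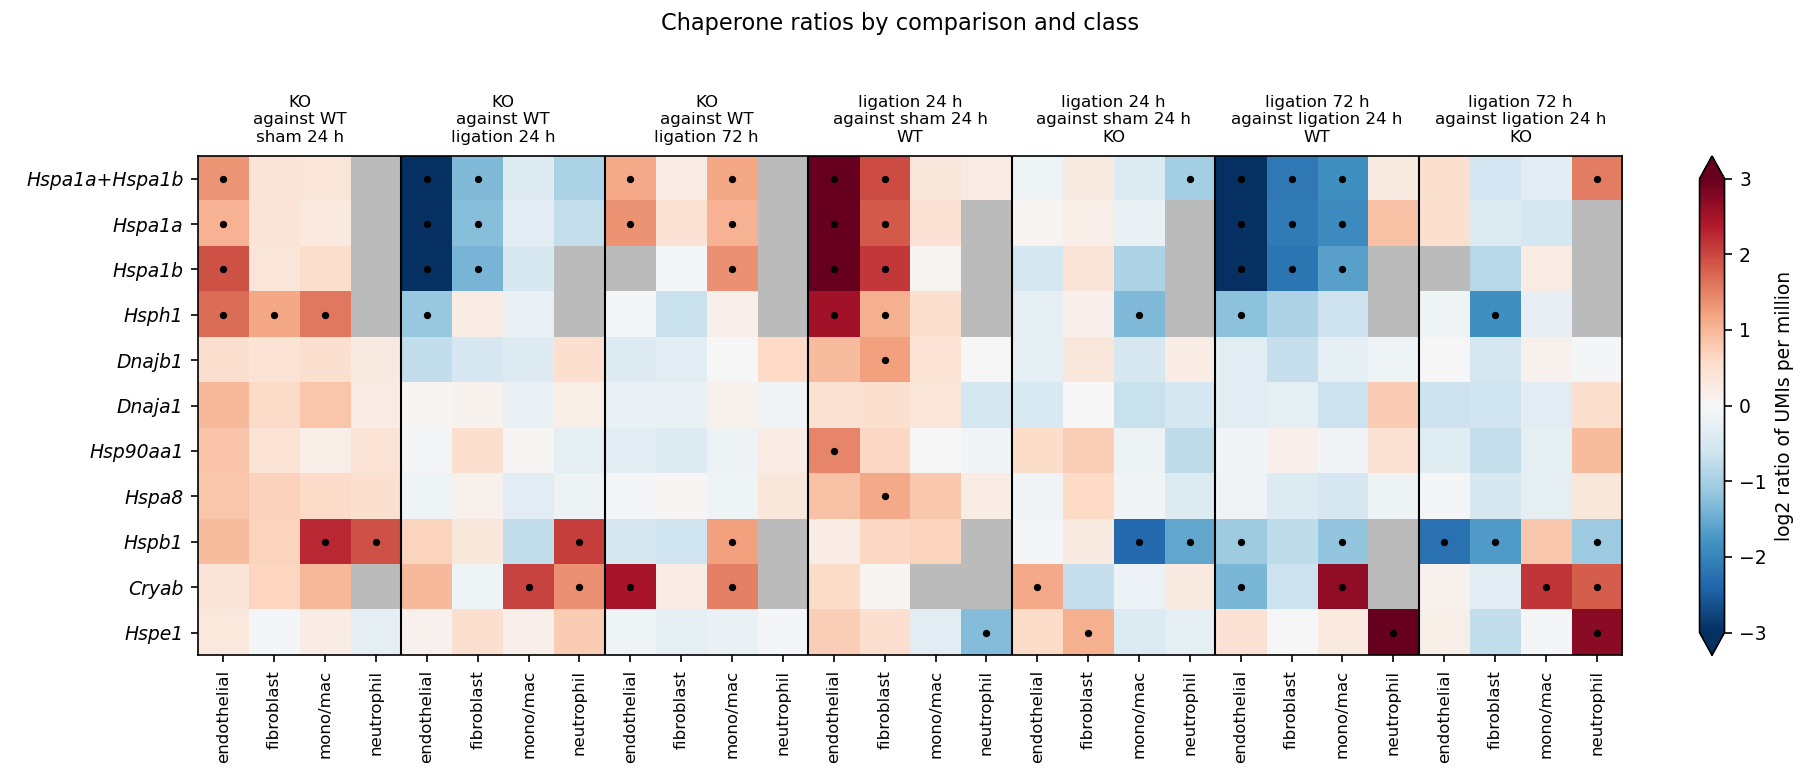
Log2 ratios of CPM for the Hspa1 sum and the 10 members in 4 classes and 7 comparisons, with dots on ratios of at least 2-fold and grey cells where a pair of libraries held fewer than 50 UMIs. The KO against WT sham block is higher throughout its endothelial column, where 10 of 10 members have a ratio above 1 (log2 above 0).

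The second comparison asked what ligation changed at 24 h. In WT, 9 of 34 member values were called higher than in sham (3.96% of gene values) and 1 lower (4.90%). Endothelial Hspa1 was 497 against 15.9 CPM, 31.3-fold (26.3 to 37.5), over a WT sham level whose interval overlapped that of neutrophils, as given above. Hsph1 was 52.2 against 9.01 CPM, 5.79-fold (4.41 to 7.66), and Hsp90aa1, the inducible Hsp90, was 343 against 124 CPM, 2.76-fold (2.54 to 3.00). In WT fibroblasts Hspa1 was 3.89-fold higher (3.37 to 4.50). There Dnajb1, the J-domain partner of inducible Hsp70, was 49.2 against 21.0 CPM, Hsph1 was 69.1 against 33.1, and constitutive Hspa8 was 1482 against 672. The value called lower was Hspe1 in neutrophils (16.7 to 6.71 CPM). Immediate early genes were called higher in the same WT comparison, 6 of 14 in endothelial barcodes (median log2 ratio 0.83, beside 3.49% of all genes called) and 8 of 14 in fibroblasts (1.02, beside 4.86%). In KO they were 6 of 13 in endothelial barcodes (0.52, beside 3.74%) and 4 of 13 in fibroblasts (0.54, beside 4.01%). Their part in the chaperone values was not tested.

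In KO, 2 of 37 member values were called higher after ligation at 24 h (3.07% of gene values) and 3 lower (6.02%). Endothelial Hspa1 was 36.7 CPM after ligation and 39.7 in sham. Called higher were Hspe1 in fibroblasts (464 to 965 CPM) and Cryab in endothelial barcodes (36.3 to 79.3 CPM), where the log2 ratio of 1.13 was 0.96 without 1 barcode. Called lower were Hsph1 (61.7 to 24.6 CPM) and Hspb1 (48.3 to 9.54 CPM) in monocyte/macrophage barcodes and Hspb1 in neutrophils (48.8 to 16.5 CPM). Endothelial markers moved with Hspb1 again, from 1041 to 43.6 CPM in monocyte/macrophage barcodes and from 1172 to 282 CPM in neutrophils, and their part in these calls was not tested. The 3 lower values were compared with the KO sham levels that had themselves been high against WT. The monocyte/macrophage difference in Hspa1 stayed under 2-fold in both genotypes, at 1.26-fold in WT (1.17 to 1.37) and 0.754-fold in KO.

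The 24 h values for Hspa1 rested on very few barcodes. In WT endothelial barcodes 1452 of 1600 Hspa1 UMIs (90.8%) came from 14 of 736 barcodes that held at least 5 Hspa1 UMIs and at least 20 per 10000 UMIs, called the high range here. Their Hspa1 counts were 513, 310, 289, 123, 66, 53, 22, 16, 13, 12, 10, 9, 9 and 7 UMIs. The first of them held 367 Hspa1a and 146 Hspa1b UMIs, 12.0% of all its UMIs. Of these, 7 held over 200 per 10000, from 229 to 1201, and 7 held 27.0 to 69.4, so the limit cuts through a range with no clear gap: 3 further barcodes held 10 to 20 per 10000. The highest 1% of barcodes held 86.0% of the Hspa1 UMIs, a share reached by 0.167% of the 4794 genes with at least 100 UMIs in that class, for which the median was 11.5%. Without the 10 highest barcodes of each library the WT log2 ratio of 24 h to sham was 2.66 in place of 4.97 in endothelial barcodes, and 0.40 in place of 1.96 in fibroblasts, under 2-fold. Outside the high range, the endothelial level was 13.1 CPM in WT sham, 39.3 in KO sham, 46.5 in WT 24 h, 28.3 in KO 24 h, 23.0 in WT 72 h and 50.8 in KO 72 h.

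**Figure D3:**
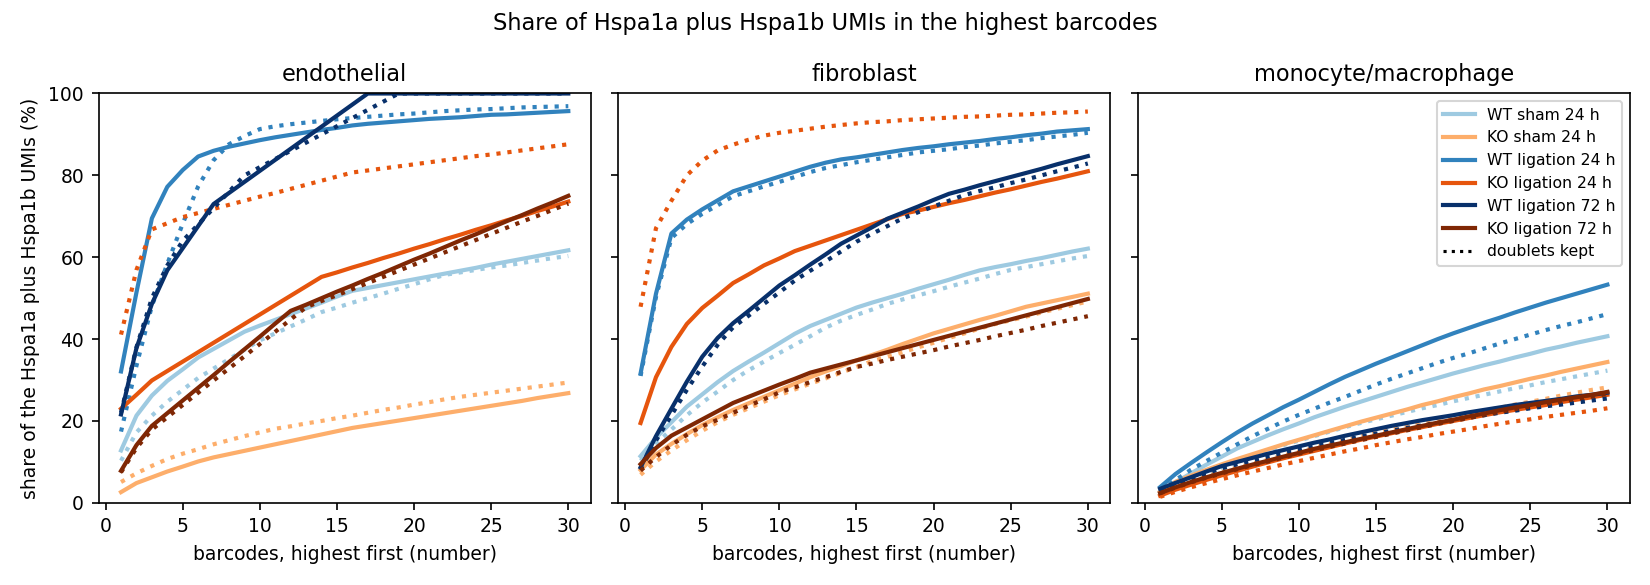
Cumulative share (%) of Hspa1a plus Hspa1b UMIs in the 1 to 30 highest barcodes of each library in 3 classes, dotted with doublets kept. In the highest barcode alone lie 32.1% of the WT 24 h endothelial UMIs with doublets removed and 47.9% of the KO 24 h fibroblast UMIs with doublets kept, while monocyte/macrophage curves reach 23.1% to 53.3% at 30 barcodes.

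How doublets are treated decides where these barcodes are counted. Before removal, 61 barcodes of the 4 main classes in the 2 ligation 24 h libraries lay in the high range, and 13 of them had been marked as doublets from their doublet score. Of the 13, 12 carried at most 3 marker UMIs of any other class. The marked barcodes held 1543 Hspa1 UMIs in WT endothelial (4 barcodes), 1553 in KO fibroblast (7 barcodes, 872 UMIs in 1 of them) and 115 in KO endothelial (2 barcodes). With doublets kept, endothelial Hspa1 at 24 h was 932 CPM in WT and 81.0 in KO, and fibroblast Hspa1 was 237 CPM in WT and 644 in KO. The KO against WT log2 ratio at 24 h was then −3.52 in place of −3.76 in endothelial barcodes, and 1.44 in place of −1.32 in fibroblasts, so the fibroblast direction turned. Against KO sham, the log2 ratio of Hspa1 at 24 h was 2.87 in place of 0.26 in fibroblasts and 0.87 in place of −0.12 in endothelial barcodes.

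Endothelial and fibroblast barcodes of the high range came mostly from the 2 libraries made 24 h after ligation, 34 of 40 with doublets kept and 21 of 26 with doublets removed. Each of the 2 sham and 2 ligation 72 h libraries held at most 2 under either setting. Counts for each class are given next, with intervals that cover counting of barcodes in 1 library per genotype and not mice. At 24 h, high endothelial barcodes were mainly WT, with 14 of 736 in WT 24 h (1.90%, exact 95% interval 1.04% to 3.17%) and 1 of 753 in KO 24 h (0.133%, 0.00336% to 0.738%). With doublets kept they were 18 of 735 in WT (2.45%, 1.46% to 3.84%) and 3 of 764 in KO (0.393%, 0.0811% to 1.14%). The counting intervals lay apart under both settings, which does not separate genotype from library. High fibroblast barcodes were 3 of 202 in WT (1.49%, 0.307% to 4.28%) and 3 of 177 in KO (1.69%, 0.351% to 4.87%). With doublets kept they were 3 of 212 in WT (1.42%, 0.293% to 4.08%) and 10 of 226 in KO (4.42%, 2.14% to 7.99%), with overlapping intervals under both settings.

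Taken as a sum, the 14 high endothelial barcodes of WT 24 h carried other members of the heat shock response at high level. Hsph1 was 2347 CPM in them and 25.8 in the other endothelial barcodes of that library, 91.1-fold (66.5 to 125). Hsp90aa1 was 6358 against 274 CPM, Hspb1 was 17083 against 798, and Dnajb1 was 682 against 37.1. The mitochondrial co-chaperonin Hspe1 was 3084 against 178 CPM, with its partner Hspd1 17.6-fold higher. Dnaja1 and Hspa8 differed less, at 3.41-fold and 3.32-fold. None of the 14 held a Cryab UMI, where the other barcodes had 40.8 CPM. The interval of that ratio, 0 to 2.50, includes 1, so a lower Cryab level is not shown. The Hsph1 UMIs sat mostly in the 7 barcodes above 200 per 10000, 6 of which held 83 UMIs between them, while 2 of the other 7 held 3. Other members were uneven too: the first barcode held 59 Hspe1 UMIs, and the first 2 held 12 and 9 Dnajb1 UMIs. The barcode with 22 Hspa1 UMIs held no UMI of any other member. With doublets kept, 10 of the 18 high barcodes held a Dnajb1 UMI and 10 an Hspe1 UMI.

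In these barcodes 11 of 17 measured genes of the list of other heat-inducible chaperones and HSF1 targets were at least 2-fold higher than in the rest, beside 12.2% of all 6984 measured genes. Bag3, a nucleotide exchange factor of stressed cells, was 20.1-fold higher and the proteasome adaptor Zfand2a 13.8-fold. Of the cytosolic chaperonin list 0 of 8 and of the endoplasmic reticulum list 2 of 14 reached 2-fold. Immediate early genes reached it for 9 of 13, with Egr1 36.1-fold and Atf3 27.1-fold higher. The class name is weaker here: endothelial markers summed to 18284 CPM in the 14 barcodes and 41299 in the others. The per-barcode median was 69.0 against 426 per 10000, though each of the 14 held at least 1. From the most Hspa1 UMIs to the fewest, the 14 held 20, 38, 4, 7, 1, 5, 35, 182, 19, 11, 172, 19, 144 and 13 endothelial marker UMIs. The name is thus least secure in several of the barcodes that hold most of the Hspa1 UMIs. Fibroblast markers were at 0, monocyte/macrophage markers at 81.9 against 85.5 CPM and cardiomyocyte markers at 136 against 270 CPM. Of the 14, 8 lay in 1 endothelial cluster of 152 barcodes in that library, led by Fabp4, Ctla2a, Tm4sf1, Apln, Col4a1 and Pgf.

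**Figure D4:**
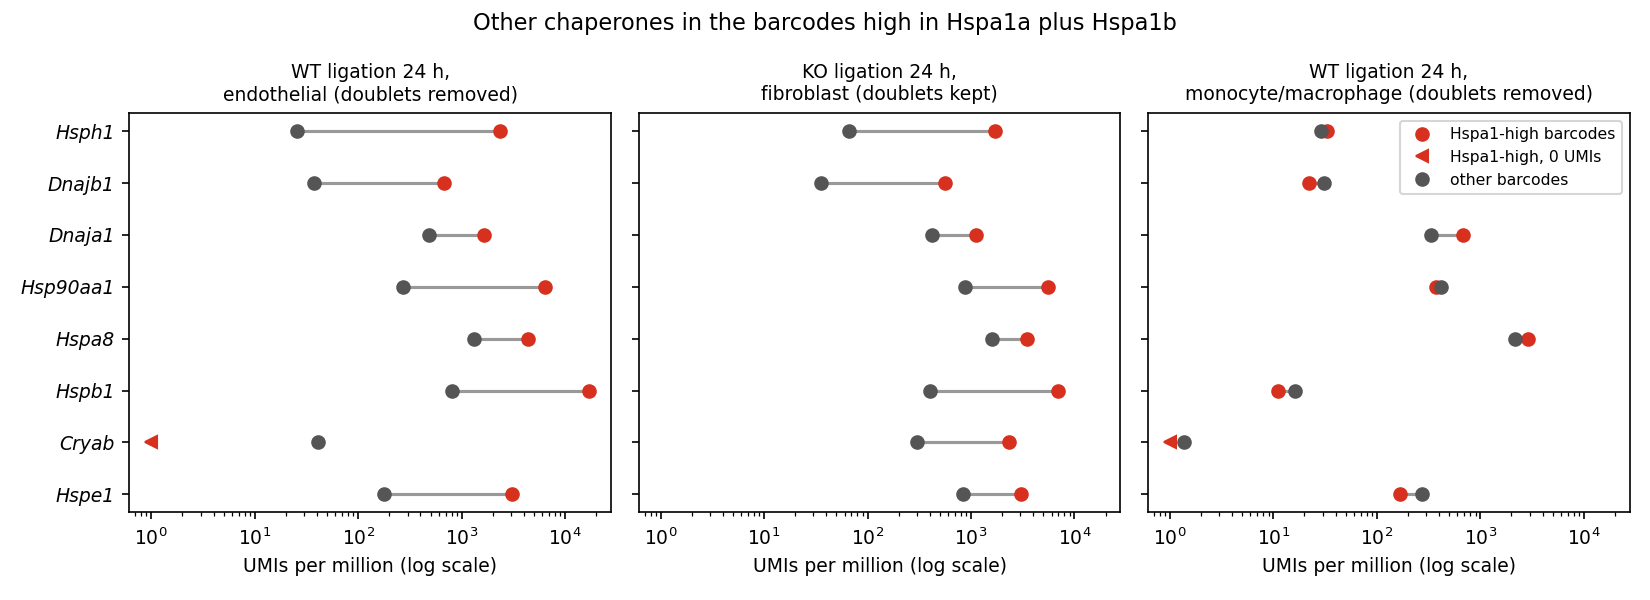
Levels (CPM, log axis) of the 8 other members in the Hspa1-high barcodes (red; a triangle at the left edge stands for 0 UMIs) and in the remaining barcodes (grey) of the same class and library. With doublets removed, Hsph1 is 91.1-fold apart in WT endothelial and 1.15-fold in WT monocyte/macrophage barcodes (92.9 and 0.811 with doublets kept). In KO fibroblasts, drawn with doublets kept, it is 26.0-fold apart.

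KO fibroblasts at 24 h also held such barcodes, most of them counted once doublets were kept. Their 10 high barcodes of 226 held 90.2% of the Hspa1 UMIs, with Hsph1 26.0-fold, Hspb1 17.3-fold, Dnajb1 15.8-fold, Cryab 7.82-fold and Hsp90aa1 6.29-fold above the other KO fibroblasts. Hspe1, Dnaja1 and Hspa8 were 3.60-fold, 2.62-fold and 2.15-fold higher. The Hspe1 and Cryab values rest on very few barcodes. Single barcodes held 101 of the 156 Hspe1 UMIs, and 71 and 35 of the 120 Cryab UMIs. Of the 10, 1 also carried 1556 neutrophil marker UMIs. In the 3 high KO fibroblasts left with doublets removed, Hsph1 was 38.6-fold and Hspb1 25.3-fold, while Dnaja1 was 0.543-fold, Hspa8 0.656-fold and Dnajb1 had no UMI. Their Hsph1 counts were 5, 5 and 24 UMIs and their Hspb1 counts 21, 3 and 125. The last of the 3, with most of both, was the lowest in Hspa1, at 26.4 per 10000. In WT fibroblasts 3 of 202 barcodes held 444 of 675 Hspa1 UMIs (213, 132 and 99), and 1 barcode held 322 of the class's 1075 Hspb1 UMIs. In these 3 WT barcodes 4 other members stayed near or below the level of the rest: Hsp90aa1 was 1.16-fold, Hspa8 1.11-fold, Dnaja1 0.952-fold and Hspe1 0.476-fold, and the Hsph1 and Dnajb1 UMIs lay in 1 of them. Outside the high range, fibroblast Hspa1 at 24 h was 87.6 CPM in WT and 63.2 in KO.

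Monocyte/macrophage barcodes had another distribution. The high range held 13 of 571 barcodes and 23.6% of the Hspa1 UMIs in WT 24 h, and 12 of 1399 barcodes and 9.48% in KO 24 h. In WT these 13 differed little in most other members: Dnaja1 was 2.01-fold, Hspa8 1.32-fold, Hsph1 1.15-fold and Hsp90aa1 0.901-fold. Other libraries, with doublets kept, showed more: the 6 of WT 72 h had Hsph1 9.38-fold (4.03 to 18.6, 8 UMIs in 2 barcodes), Hspa8 3.40-fold and Dnaja1 3.24-fold, and the 10 of WT sham had Dnajb1 5.12-fold (2.61 to 9.07) with Hsph1 at 0.725-fold. In WT 24 h 2 of 14 other heat-inducible genes and 0 of 14 immediate early genes reached 2-fold, beside 11.9% of all genes. In KO 8 of 14 immediate early genes reached it, beside 15.3% of all genes. Hspa1 in this class was instead broad, with a UMI in 10.1% of barcodes thinned to 1000 UMIs in WT sham, 15.8% in KO sham, 13.5% and 10.8% at 24 h, and 4.55% and 8.76% at 72 h (WT and KO in each pair; 1099 KO barcodes at 72 h were too shallow and left out).

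At 24 h after ligation, 3 of 38 member values were called higher in KO than WT (1.06% of gene values) and 5 lower (1.51%). The 5 lower were Hspa1a and Hspa1b in endothelial and fibroblast barcodes and endothelial Hsph1 (0.453-fold, 0.328 to 0.616). Without the 10 highest barcodes the Hsph1 log2 ratio was −0.59 in place of −1.14, and the fibroblast Hspa1 ratio −0.33 in place of −1.32. Endothelial immediate early genes differed between KO and WT at 24 h, with 3 of 14 lower in KO (1.06% of all genes there). They were Fosb (14.3 to 1.69), Egr1 (131 to 35.0) and Nr4a1 (22.4 to 10.5 CPM). In fibroblasts 5 of 14 were lower (2.46% of all genes). The 3 higher values were Hspb1 in neutrophils (3.93 to 16.5 CPM) and Cryab in neutrophils (2.08 to 5.37 CPM) and monocyte/macrophage barcodes (1.35 to 5.44 CPM). In the same libraries neutrophil endothelial markers went from 141 to 282 CPM, and cardiomyocyte markers from 17.6 to 35.5 CPM in neutrophils and from 10.5 to 16.4 CPM in monocyte/macrophage barcodes. The part of RNA of those cell types in these calls was not tested.

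By 72 h the WT Hspa1 levels were lower than at 24 h in 3 classes. In WT, 10 of 36 member values were called lower (9.41% of gene values) and 2 higher (12.1%). Endothelial Hspa1 was 0.0463-fold its 24 h level, fibroblast 0.227-fold and monocyte/macrophage 0.278-fold (0.259 to 0.299). The monocyte/macrophage difference did not rest on the high range, outside which the level was 148 CPM at 24 h and 48.6 at 72 h. Different clusters made up the classes at the 2 times. Clusters 10, 14 and 21, at 27.0, 37.2 and 20.4 CPM of Hspa1, held 568, 539 and 184 of the 2350 monocyte/macrophage barcodes in WT 72 h and 5, 7 and 0 of the 571 in WT 24 h. In the 3 clusters with at least 50 barcodes in both libraries, WT Hspa1 went from 129 to 63.3 CPM (cluster 3), from 436 to 117 (cluster 8) and from 213 to 133 (cluster 9). Of the 150 fibroblasts in WT 72 h, 98 lay in cluster 12, which held 4 of the 202 in WT 24 h. Immediate early genes were called lower with them in WT. They were 11 of 14 in monocyte/macrophage barcodes (6.71% of all genes), 6 of 14 in fibroblasts (15.7%) and 5 of 14 in endothelial barcodes (8.42%). The part of the clusters or of the immediate early genes in the Hspa1 values was not tested. In KO, 4 of 36 were called lower (5.68%) and 3 higher (12.9%), and Hspa1 in monocyte/macrophage barcodes was 146 CPM at 24 h and 118 at 72 h. Endothelial Hspb1 was lower at 72 h in both genotypes, 983 to 469 CPM in WT and 1568 to 335 in KO.

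KO was called higher than WT at 72 h in 6 of 34 member values (4.73% of gene values) and lower in 0 (1.46%). Monocyte/macrophage Hspa1 was 118 against 53.1 CPM, 2.23-fold (2.08 to 2.39), in 3085 and 2350 barcodes. Endothelial Hspa1 was 50.8 against 23.0 CPM, 2.21-fold (1.45 to 3.41), on 64 and 37 UMIs. Its log2 ratio was 0.85, under 2-fold, with doublets kept. Monocyte/macrophage Hspb1 was 16.6 against 7.02 CPM, beside endothelial markers of 475 against 234 CPM, whose part was not tested. The Hspb1 log2 ratio of 1.24 was 0.74 in barcodes with at least 1500 UMIs. Of the immediate early genes, 5 of 13 were called higher in KO at 72 h in endothelial barcodes (3.69% of all genes there), among them Fos (19.3 to 220 CPM), and 6 of 14 in fibroblasts (8.96%). In monocyte/macrophage barcodes 2 of 14 were called (3.94% of all genes), Egr1 among them (15.5 to 43.7 CPM). In neutrophils it was 0 of 14 (0.846%), with a median log2 ratio of −0.07. These libraries differ in depth as given above, and the part of depth, of the KO-rich clusters and of the immediate early genes was not tested.

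Cryab, the small heat shock protein of striated muscle, followed the tissue's muscle cells in level. In the cardiomyocyte-like barcodes left in the preparations it was 4933 CPM in KO sham, 12892 in KO 24 h, 16359 in WT 72 h and 10208 in KO 72 h, the libraries with at least 50 such barcodes. Per 100 cardiomyocyte marker UMIs it gave 8.11 and 6.32 UMIs in the WT and KO sham, 15.2 and 19.9 at 24 h, and 25.9 and 26.8 at 72 h. The ratio was higher after ligation than in sham in both genotypes and higher at 72 h than at 24 h, on 14 to 175 barcodes a library. Without the 10 barcodes highest in these markers, the WT 24 h value was 4.30, below the WT sham value of 11.8, so the WT order at 24 h rests on very few barcodes. The same step gave 7.01, 26.3 and 40.8 in KO and 40.3 in WT 72 h. Smooth muscle Cryab was 513, 660, 423, 789 and 284 CPM in the 5 libraries measured (all but WT 72 h). The last of these, KO 72 h, comes mostly from cluster 27, whose name is uncertain as given above.

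In endothelial barcodes Cryab gave 10.6, 12.4, 15.0, 27.6, 19.2 and 27.8 UMIs per 100 cardiomyocyte marker UMIs in the order of the libraries. The cardiomyocyte class gave lower values with intervals apart in both sham libraries (in KO 6.32, 5.96 to 6.70, against 12.4, 11.2 to 13.7) and in KO 24 h (19.9, 19.1 to 20.8, against 27.6, 23.4 to 32.5), while the intervals overlapped in the other 3. Fibroblasts differed, with 746, 866, 1588, 1118, 308 and 64.6 per 100, and 94.7 to 220 CPM of Cryab. The KO against WT calls for Cryab at 72 h were 15.5 to 86.6 CPM in endothelial and 8.46 to 24.0 in monocyte/macrophage barcodes. Cardiomyocyte markers went from 80.8 CPM in WT to 311 in KO endothelial barcodes. In monocyte/macrophage barcodes they went from 13.5 to 71.7 CPM. In those classes the part of cardiomyocyte RNA in the Cryab values was not tested.

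**Figure D5:**
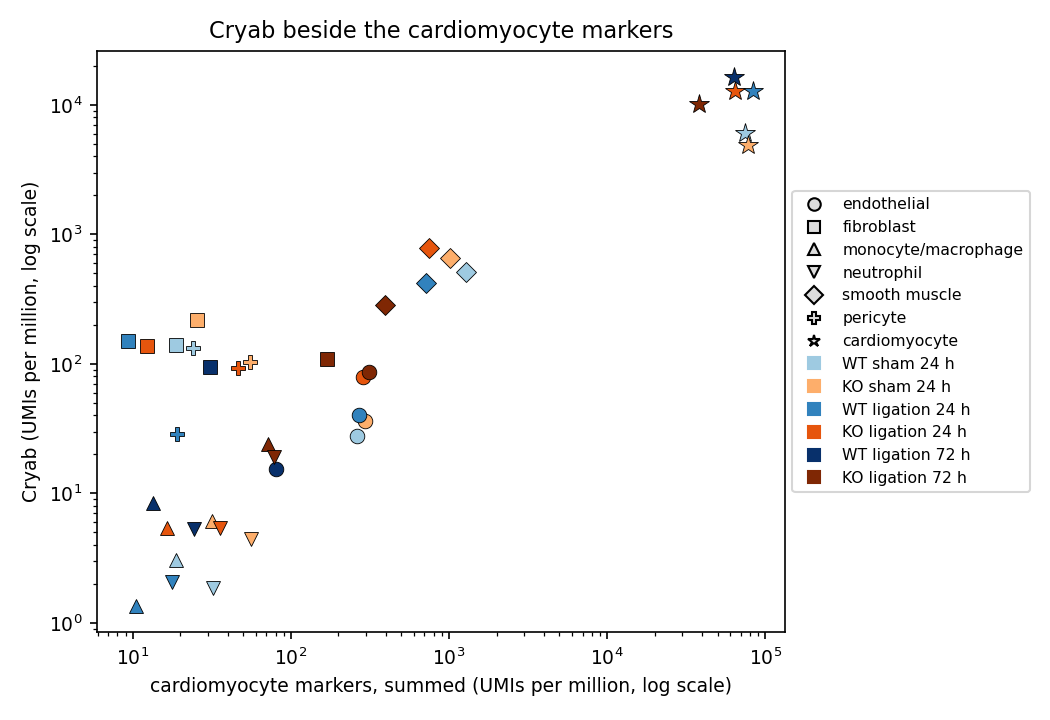
Cryab against summed cardiomyocyte markers (CPM, both axes log), one point per class and library. Endothelial points show 10.6 to 27.8 Cryab UMIs per 100 marker UMIs, beside 6.32 to 26.8 in the cardiomyocyte class, while fibroblast points lie well above that proportion.

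Hspe1, the lid of the mitochondrial Hsp60 chamber, differed most between libraries in neutrophils. It was 16.7, 14.0, 6.71, 11.3, 76.1 and 73.8 CPM in the order of the libraries, so both 72 h libraries stood above the other 4. The 72 h level was 11.3-fold the 24 h level in WT (7.60 to 17.5) and 6.50-fold in KO (4.72 to 8.90). Different clusters made up the class at these times. Cluster 2 held 721 of 1184 WT and 1556 of 3464 KO neutrophils at 24 h but 8 and 3 at 72 h, and cluster 17 held 339 of 962 WT and 179 of 449 KO neutrophils at 72 h but 1 and 15 at 24 h. Hspe1 was 131 CPM in WT and 105 in KO in cluster 17. In cluster 1, found at both times, it was 6.49 and 30.7 CPM in WT and 14.3 and 53.0 in KO, and in cluster 6 it was 2.82 and 73.0 in WT and 14.5 and 58.0 in KO. In cluster 16 it was 2.63 and 40.8 in WT and 0 and 45.0 in KO. These values rest on 0 to 44 UMIs each. Neutrophil genes as a whole also differed between these times: 32.3% were called higher in WT and 29.2% in KO. Of the cytosolic chaperonin list 8 of 8 genes were called higher in WT and 7 of 8 in KO, with a median log2 ratio of 1.80 and 1.82 beside 0.55 and 0.51 for all genes. In WT the mitochondrial list had 4 of 5 higher (median 1.63) and the heat-inducible list 7 of 11 (1.30). The co-chaperone list had 6 of 12 higher and 1 lower (1.03). Endoplasmic reticulum chaperones went the other way, with 0 of 13 higher, 2 lower and a median of −0.47.

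Across the 33 library and class sums with at least 100 barcodes, the level of Hspa1 followed Hsp90aa1 (Spearman's rho 0.781), Hspa8 (0.779) and Hsph1 (0.725), and less so Hspe1 (0.652), Cryab (0.429), Dnaja1 (0.381), Hspb1 (0.314) and Dnajb1 (−0.084). Many other genes followed it as closely: among 6162 genes Hsp90aa1 ranked 23, Hspa8 26, Hsph1 135 and Hspe1 372. The non-members nearest in pattern were Slc39a14 (0.815), Metap2 (0.811), Szrd1 (0.808), Gtf3c6 (0.807) and Hsd17b12 (0.807). The sums share libraries, depth and classes, and the correlations are descriptions over sums that are not independent.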

How the data were processed

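The deposited matrices hold UMI counts per gene and barcode for 6 libraries. The authors made them with Cell Ranger 6.0.0 on mm10, per the submitters' processing notes. Barcodes with at least 200 genes and at most 20% mitochondrial UMIs were kept, and the barcodes with the highest Scrublet scores (0.8% per 1000 deposited barcodes) were removed as doublets. Counts were scaled to 10000 per barcode, and clusters were made without the chaperones, mitochondrial, ribosomal, hemoglobin genes or Trpm4 (2000 variable genes, 30 principal components, 20 neighbours, Leiden resolution 1, with scanpy 1.11.5 and leidenalg 0.10.2) and named from marker lists. Clusters that no list named, 1732 barcodes in all, entered no class. UMIs were summed per library and class and divided by the class total (CPM, per 1000000). Ratios carry exact conditional intervals at 95%, levels exact Poisson intervals and shares exact binomial ones. Reads behind UMIs are not independent samples of mice, so these cover counting error only. No test was made, because each group has 1 library.

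The members, lists, classes and the 2-fold rule were chosen with earlier results of these data known. All members are named, and genes of other lists where they passed 2-fold and were among the 3 largest differences of their list, or where a result on a member needed them; a result this rule would name is not reported here. The 5 genes nearest Hspa1 in pattern were taken by Spearman correlation of log2(CPM + 1). Tested on simulated data for KO against WT sham, the 2-fold rule recovered 98.5% to 100% of 200 genes changed 4-fold in the 4 classes. The changed genes had at least 50 UMIs, and the simulated counts varied by counting error only. The simulation held no UMIs gathered in few barcodes and no library differences, so it does not speak to calls that rest on those. RefSeq promoter windows were matched by symbol, 7 of 10 members having one. Alternatives covered clustering, doublets, depth, scaling, low counts and the highest barcodes.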

Additional observations from a re-analysis of the deposited data

Results flagged for a closer look

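Endothelial KO against WT differences pointed in opposite directions at different times. For the sum of Hspa1a and Hspa1b the log2 ratio was 1.32 without infarction, −3.76 at 24 h of infarction and 1.14 at 72 h, on 1 library per group and with counting intervals of this sum that do not include 0. For Hspa1a alone it was 1.05, −3.43 and 1.35, for Hspa1b 1.91 in sham and −4.35 at 24 h, and for Hsph1 1.68 in sham and −1.14 at 24 h. The difference between the times was not tested, since no group has a second library. At 24 h, 14 WT barcodes hold 90.8% of the endothelial Hspa1 UMIs.

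A signal also lay in barcodes outside the main measurement, those marked as doublets. High-range barcodes among them held 1553 Hspa1 UMIs in KO fibroblast, 1543 in WT endothelial and 115 in KO endothelial barcodes, all 24 h after ligation. The sham and 72 h libraries had none in these classes.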

How the results depend on the processing

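The 7 counts of called members were recomputed under 15 alternatives, and 101 of the 105 values stayed within 1.5 times. Other kinds of value moved more often: 70 Hspa1 log2 ratios moved, 3 turned and 263 did neither; counts of high-range barcodes moved in 15 cases and not in 33, the concentration of UMIs in 11 and not in 4, shares at equal depth in 15 and not in 9, and Cryab values in 15 and not in 20. Requiring at least 200 UMIs per pair of libraries gave 5 calls in place of 8 in the KO against WT comparison 24 h after ligation, and 4 in place of 7 for ligation 72 h against 24 h in KO; fewer values are tested there. Keeping doublets, with clusters made anew, gave 8 in place of 5 for ligation 24 h against sham in KO and 11 in place of 7 for 72 h against 24 h in KO. Keeping doublets also turned the KO against WT log2 ratio of Hspa1 in fibroblasts at 24 h to 1.44. Without the 10 highest barcodes, neutrophil Hspa1 in KO turned to 0.98 for ligation 24 h against sham and −0.73 for 72 h against 24 h, on few UMIs. Of 12 called Hspa1 ratios, 7 kept direction and fold without the 10 highest barcodes, 9 without doublet removal, 9 as means over barcodes, 10 with at most 10% mitochondrial UMIs, 11 relative to the median gene or without the highest barcode, and 12 under each of the others. One monocyte/macrophage barcode decides the WT Hspb1 ratio of 72 h to 24 h: the log2 ratio is −1.19 with it and −0.08 without it. Counting the unnamed cluster led by Arg1, Ccl24 and Fn1 with monocyte/macrophage barcodes, an alternative chosen after seeing the data, gave Hspa1 levels of 140, 190, 178, 133, 52.9 and 115 CPM in the order of the libraries. No paired analysis was possible because each group has 1 library. Depth limits the KO 72 h library most.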
